A study of Mus musculus with 6 samples.

Results

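The constitutive proteasome genes were taken as the 42 of 55536 rows of the expression table whose symbol starts with Psma, Psmb, Psmc, Psmd or Psme and a number. The inducible subunits Psmb8, Psmb9 and Psmb10 and 4 pseudogene rows, none above 0.06 TPM (length-corrected transcript abundance), were left out. RNA came from the livers of C57BL/6 mice 8 to 10 weeks old, all carrying floxed Vmp1 alleles, in which Cre recombinase cuts out the sequence between loxP sites. All mice were given the adeno-associated virus AAV8 with the TBG promoter, which is active in hepatocytes, into a vein. In the 3 control libraries (WT) the virus was AAV8-TBG-null, and in the 3 libraries labelled as hepatocyte-specific VMP1 knockout (H-VMP1 KO) it was AAV8-TBG-cre, each for 2 weeks. Since that promoter drives Cre in hepatocytes, other liver cells are meant to keep an intact Vmp1. VMP1, a protein of endoplasmic reticulum membranes, is needed for autophagy, and the comparison asks how the genes of the other large degradation system, the proteasome, differ between these livers. Whether each sample is a different mouse is not stated, so a p-value here reflects only how far these samples spread, which may be partly technical.

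The proteasome degrades proteins tagged with ubiquitin. Its barrel-shaped core particle (20S) has outer rings of alpha subunits (Psma genes), which gate the entrance, and inner rings of beta subunits (Psmb genes), of which those encoded by Psmb5, Psmb6 and Psmb7 cut peptide bonds. The regulatory particle (19S) has a base of ATPases that unfold substrates (Psmc genes) with scaffold and receptor proteins, and a lid that removes ubiquitin (both Psmd genes), and core plus regulatory particle form the 26S proteasome. Psmd5, Psmd9 and Psmd10 encode chaperones that help to assemble the base, and Psme genes encode other activators that cap the core. When proteasome activity falls, the transcription factor NRF1 (Nfe2l1) is known to raise subunit genes through antioxidant response elements (ARE), and interferon-gamma is known to induce Psme1 and Psme2 together with the inducible catalytic subunits. By role, 16 of the 42 rows are core genes and 24 regulatory genes. The remaining pair are Psmc3ip, which encodes a meiotic recombination protein and is no proteasome subunit, and Psme2b, a close copy of Psme2.

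Promoter sequence is shown for the 4 genes that rose most under both scalings described below, and for the matches to the ARE core, since that element links NRF1 to this gene family. Sequences are from RefSeq on GRCm38.p6, 5′ to 3′ on the strand of the gene, with positions counted from the RefSeq start site. The first 4 run from -120 to -1, in the order Psmd8 at chr7:29180674-29180793, Psmd10 at chrX:140956712-140956831, Psme1 at chr14:55578374-55578493 and Psmd5 at chr2:34870963-34871082, and capitals mark any ARE core, interferon response core or CCAAT box.
Psmd8: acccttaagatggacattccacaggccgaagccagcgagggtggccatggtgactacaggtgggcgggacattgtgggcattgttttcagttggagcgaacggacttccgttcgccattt
Psmd10: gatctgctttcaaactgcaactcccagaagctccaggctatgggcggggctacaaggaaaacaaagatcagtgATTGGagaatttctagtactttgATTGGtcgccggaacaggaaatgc
Psme1: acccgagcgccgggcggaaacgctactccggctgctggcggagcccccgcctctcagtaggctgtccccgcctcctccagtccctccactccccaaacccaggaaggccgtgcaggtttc
Psmd5: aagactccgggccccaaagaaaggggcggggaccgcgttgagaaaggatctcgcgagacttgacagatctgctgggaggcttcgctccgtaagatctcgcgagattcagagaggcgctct
Capitals appear only in Psmd10, which has CCAAT boxes, read on the other strand as ATTGG, at -47 to -43 and -24 to -20.

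The ARE core was searched as TGACNNNGC, the interferon response core as GAAA and GAAA with 2 bases of any kind between them, and the CCAAT box as CCAAT, on both strands of windows from 250 bases before to 50 after the start site. Windows were present for 35 of the 42 members, and no matches (0) of different motifs overlapped. The ARE core was found in 6 of the 35 members (17.1%), against 14.0% of all 27025 genes with a window. In the following lines capitals mark that match. Psmb5 is at chr14:54618018-54618058, Psmb6 at chr11:70525332-70525356, Psmc6 at chr14:45329581-45329621, Psmd12 at chr11:107479278-107479305, Psmd9 at chr5:123228143-123228183 and Psme4 at chr11:30771752-30771776.
Psmb5: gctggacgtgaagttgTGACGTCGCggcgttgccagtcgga
Psmb6: ggcggactaaagagagTGACGGAGC
Psmc6: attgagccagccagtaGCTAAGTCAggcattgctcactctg
Psmd12: tctGCTGTGTCAcatttgcccccctcag
Psmd9: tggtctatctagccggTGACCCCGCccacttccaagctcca
Psme4: tcccggcgctgcggctGCAGCGTCA
Psmb5, Psmb6 and Psmd9 carry the match on the gene's own strand, at -47 to -39, at -9 to -1 and at -31 to -23, and the others on the opposite strand. Of the 10 members with a window that were called higher under both scalings, 1 (Psmb5) held the ARE core. The CCAAT box was found in 14 of 35 members (40.0%), against 41.1% of genes, and in 7 of 12 core against 6 of 21 regulatory members. The interferon response core was found in 4 of 35 members (11.4%), against 3.99% of genes, namely Psmb3, Psmd4, Psmd9 and Psme1. In Psme1 it lies at 10 to 19 after the start site, in capitals in the following window (chr14:55578494-55578521).
Psme1, after the start site: gagctgtgcTTTCGCTTTCccttcccgc
A match is a description of these letters and not a bound site.

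Values are TPM, corrected for transcript length and brought to 1 total for every library, so the depth behind them is unknown. The gene targeted in this model was not lower in the labelled knockout. Vmp1 was at 70.7, 96.5 and 88.6 TPM in WT and 157, 136 and 137 TPM in the labelled knockout, so directions below rest on the labels. The value sums over all exons, and the sources used here do not name the floxed exons, so it does not check the deletion. Of 12796 genes tested with limma, 74.5% were called higher and 10.7% lower in the labelled knockout at an adjusted p under 0.05. Scaling by the median of ratios, by which the middle gene shows no change, lowered log2 fold changes by a median of 0.84 (0.77 to -0.01 for the median of all genes) and gave 35.1% higher and 36.6% lower. Both versions are therefore given for each member. Of 10 hepatocyte markers, 8 were lower as deposited, and their summed level went from 49300 to 67500 TPM in WT to between 24200 and 27700 TPM in the labelled knockout. The 8 macrophage markers had a summed level of 87.6 to 148 TPM in WT and 902 to 1170 TPM in the labelled knockout. Leaving out markers that passed the filter only through the labelled knockout and so had to differ, 6 of 6 macrophage, 6 of 6 endothelial and 6 of 6 stellate cell markers were called higher as deposited, and 6, 4 and 6 with median-of-ratios scaling. For T and NK cells, B cells, neutrophils and cholangiocytes at most 1 marker was left after that, so summed levels only are given. They were 1.19 to 1.45, 0.89 to 1.17, 1.62 to 3.0 and 16.6 to 31.8 TPM in WT, and 6.39 to 11.4, 3.94 to 4.71, 24.7 to 54.3 and 123 to 172 TPM in the labelled knockout. Of 4 erythroid markers 1 was higher and 1, Alas2, lower as deposited, and 0 and 1 with median-of-ratios scaling. Their part in the changes of the proteasome genes was not tested, and in bulk liver RNA fewer cells of a type and less RNA per cell cannot be told apart.

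Proteasome transcripts took a larger share of the labelled knockout libraries. The 42 members together held 0.282, 0.307 and 0.279% of all TPM in the WT libraries and 0.573, 0.550 and 0.591% in the labelled knockout libraries. The groups did not overlap. These shares are of TPM as deposited, where the median log2 fold change over all tested genes was 0.77. A total of 39 members passed the filter of at least 1 TPM in at least 3 libraries. Psma8, Psmb11 and Psmc3ip did not pass, and Psme2b passed only through the labelled knockout and so had to differ. Of the other 38, 35 were called higher by limma as deposited, against 74.5% of all tested genes, and 3 (Psmb7, Psmd6 and Psmd9) were not called. The count called lower was 0, also at an unadjusted p under 0.05. In 37 of the 38 every labelled knockout library lay above every WT library, which 75.5% of all tested genes did. Shares and medians over all tested genes, here and below, keep genes that passed only through the labelled knockout, unlike the 38.

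With median-of-ratios scaling the 38 split, with 10 called higher (35.1% of all genes), 20 lower (36.6%) and 8 not called. Of the 35 higher as deposited, 17 turned lower and 8 lost the call, and the 3 uncalled genes became lower. The 10 called higher under both scalings, against 35.1% of all tested genes, were Psmb5 in the core, Psmc5, Psmd7, Psmd8 and Psmd11 in the regulatory particle, the chaperone genes Psmd5 and Psmd10, and the activator genes Psme1, Psme2 and Psme3. With quantile normalization 20 were higher (35.3% of all genes) and 7 lower (35.4%). The median log2 fold change of the 38 was 0.72 as deposited, beside 0.77 over all tested genes, and -0.22 with median-of-ratios scaling, beside -0.01. By these medians the middle proteasome gene lay slightly below the middle gene of the liver. Under quantile normalization it lay above, at 0.19 beside -0.006 over all tested genes, so its place depended on the scaling. The tested genes reach down to the filter of 1 TPM, and log2(TPM + 1) understates the change of low genes. The 38 had WT means of 6.36 to 179 TPM, so these medians may set genes of unlike level side by side. The 38 genes ranged from 0.10 to 2.64 as deposited.

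**Figure D1:**
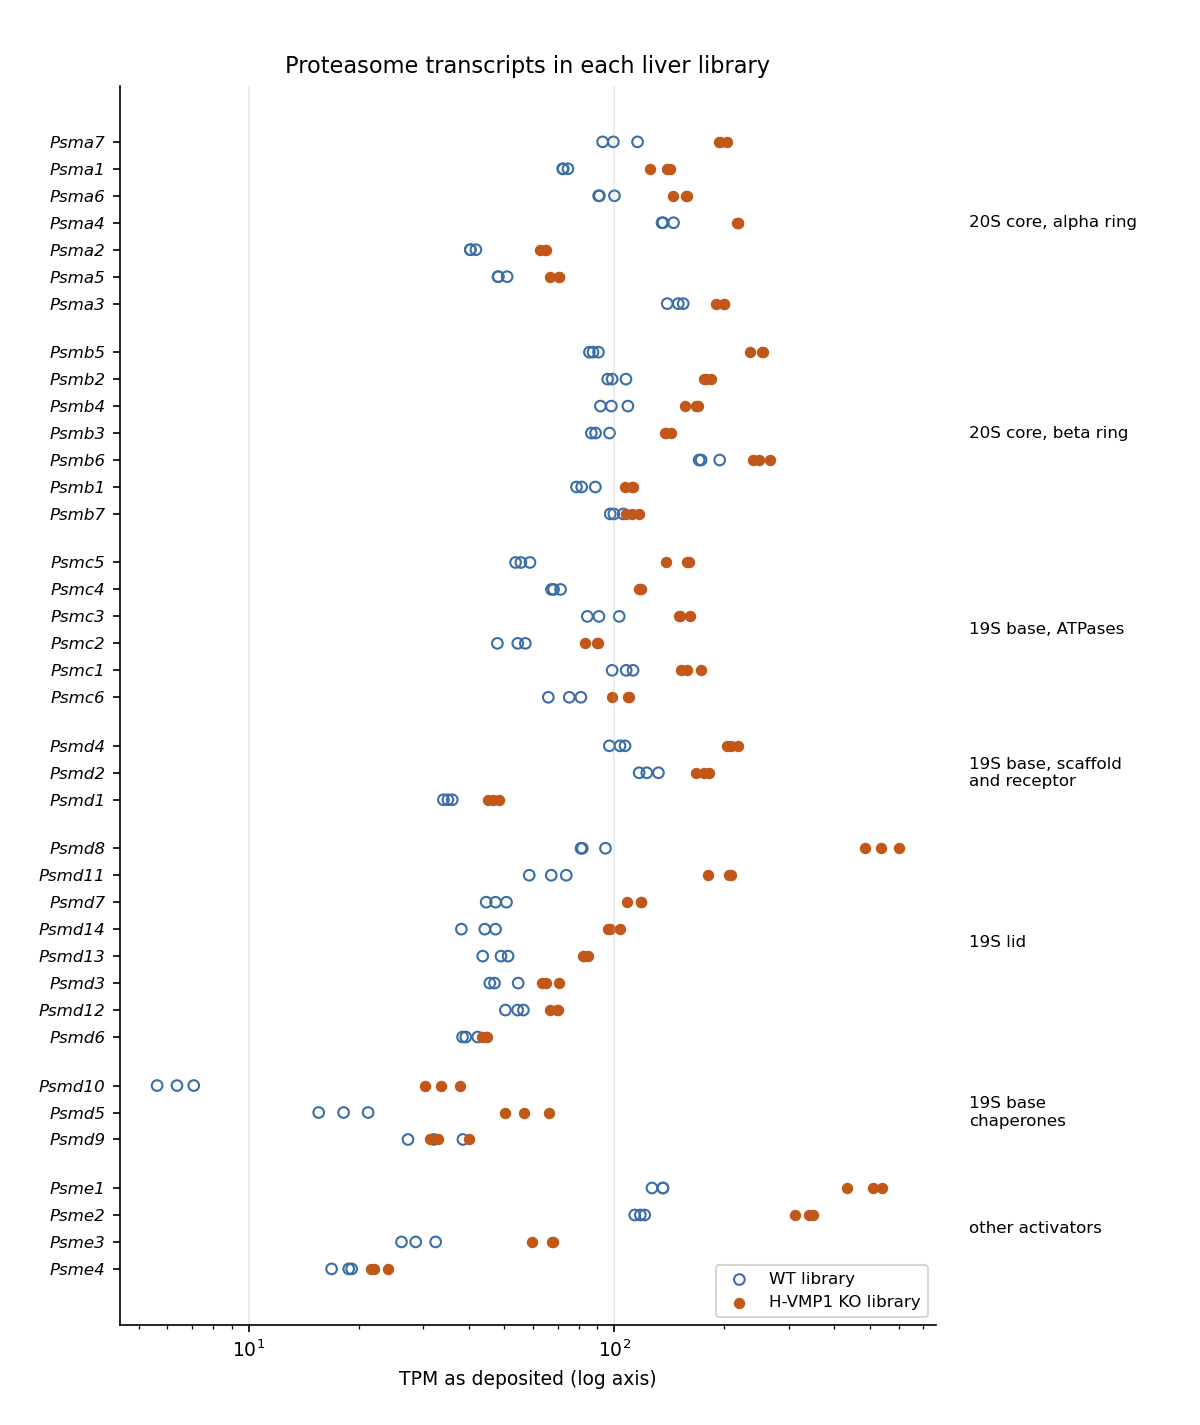
TPM (log axis) of 38 proteasome genes in the 3 WT libraries (open blue circles) and the 3 libraries labelled H-VMP1 KO (filled orange circles), grouped by role. The groups overlap for Psmd9, nearly touch for Psmb7 and Psmd6, and lie farthest apart for Psmd8 and Psmd10.

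In the alpha rings 7 of 8 genes were tested, and all 7 rose as deposited, beside 74.5% of all tested genes, by 0.41 to 0.94 on the log2 scale. With median-of-ratios scaling 5 of them were lower, Psma1 and Psma7 were not called and 0 were higher, also at an unadjusted p under 0.05. With that scaling 36.6% of all tested genes were called lower and 35.1% higher. Psma7 was at 99.5, 116 and 92.98 TPM in WT and 195, 194 and 203 TPM in the labelled knockout. Its log2 fold change, the largest of the ring as deposited, was 0.94 ± 0.11 (SE, adjusted p = 2.4e-05), and 0.00 with median-of-ratios scaling (adjusted p = 0.99). Psma3 was at 140, 154 and 150 TPM in WT and 200, 200 and 190 TPM in the labelled knockout. That was the smallest change of the ring, 0.41 ± 0.10 (adjusted p = 0.0025), and it turned to -0.53 with median-of-ratios scaling (adjusted p = 9.3e-04). The groups did not overlap for any of the 7, as for 75.5% of all tested genes, and their levels kept between 40.9 TPM (Psma2) and 148 TPM (Psma3) as WT means.

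The catalytic beta genes changed by different amounts. Psmb5, which encodes the chymotrypsin-like subunit, was at 85.6, 90.6 and 87.5 TPM in WT and 235, 254 and 255 TPM in the labelled knockout, a 2.82-fold ratio of means. Its log2 fold change was 1.48 ± 0.09 (adjusted p = 5.45e-07), and 0.55 ± 0.09 with median-of-ratios scaling (adjusted p = 9.5e-04). Psmb6, which encodes the caspase-like subunit, was at 173, 194 and 171 TPM in WT and 240, 267 and 249.8 TPM in the labelled knockout. It rose by 0.49 ± 0.10 as deposited (adjusted p = 0.0014) and was lower by the other scaling (-0.45, adjusted p = 0.0032). Psmb7, which encodes the trypsin-like subunit, was at 99.8, 106 and 97.6 TPM in WT and 108, 117 and 112 TPM in the labelled knockout. Every labelled knockout library was above every WT library for Psmb7, but by little, and the log2 fold change was 0.15 ± 0.09 as deposited (adjusted p = 0.15), against -0.79 ± 0.08 after median-of-ratios scaling (adjusted p = 8.8e-05). Exons of Psmb7 overlap Nek6 on the opposite strand, itself at 24.7 to 28.6 TPM in WT and 45.5 to 58.5 TPM in the labelled knockout, and the strand setting is not given.

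Ratios between these genes within a library are not changed by a single scaling factor per library, such as the median of ratios, but quantile normalization changes them. The ratio of Psmb5 to Psmb6 TPM was 0.495, 0.466 and 0.513 in WT and 0.976, 0.951 and 1.02 in the labelled knockout. The ratio of Psmb5 to Psmb7 went from 0.87 ± 0.02 to 2.21 ± 0.06 (SD, n = 3 per group), and that of Psmb6 to Psmb7 from 1.77 ± 0.05 to 2.25 ± 0.03. On the log2(TPM + 1) scale the Psmb6 to Psmb7 ratio differed by 0.34 as deposited and 0.55 with quantile normalization, over 1.5 times as much. Of the 3 catalytic genes Psmb6 was thus the most abundant in WT, while Psmb5 and Psmb6 were level in the labelled knockout. The noncatalytic beta genes Psmb1, Psmb2, Psmb3 and Psmb4 rose by 0.41 to 0.83 as deposited. With median-of-ratios scaling Psmb1 (-0.53) and Psmb3 (-0.32) were lower, and Psmb2 and Psmb4 were not called.

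The 6 base ATPase genes rose as deposited, beside 74.5% of all tested genes, 5 of them by a similar amount. Psmc1, Psmc2, Psmc3, Psmc4 and Psmc6 had log2 fold changes of 0.51 to 0.76. With median-of-ratios scaling 4 were lower, beside 36.6% of all tested genes, and Psmc4 was not called (-0.17, adjusted p = 0.065). Psmc6, with the smallest change, was at 75.4, 81.1 and 66.1 TPM in WT and 109, 98.9 and 110 TPM in the labelled knockout. Psmc5 stood apart at 53.7, 58.8 and 55.6 TPM in WT and 158, 138 and 160 TPM in the labelled knockout, with no overlap. Its log2 fold change was 1.42 ± 0.10 (adjusted p = 9.9e-07), and 0.49 ± 0.08 with median-of-ratios scaling (adjusted p = 7.2e-04). Psmc3 shares exon sequence with Slc39a13 on the opposite strand, which was at most 15.8 TPM.

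Among the scaffold and receptor genes of the base, Psmd1 and Psmd2, which encode its large scaffold proteins, rose by 0.40 and 0.49 as deposited, and were lower with median-of-ratios scaling (-0.52 and -0.45). Psmd1 was at 36.1, 35.1 and 34.1 TPM in WT and 46.6, 45.1 and 48.5 TPM in the labelled knockout. Psmd4, which encodes a ubiquitin receptor, was at 104, 107 and 97.02 TPM in WT and 209, 203 and 219 TPM in the labelled knockout. Its log2 fold change was 1.03 ± 0.09 (adjusted p = 5.4e-06), and 0.09 with the other scaling, where it was not called (adjusted p = 0.3).

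The lid genes covered the widest range of any part of the 26S particle. Psmd8, which encodes a lid subunit (gene at chr7:29174188-29180701, GRCm38, minus strand), was at 81.8, 94.7 and 81.1 TPM in WT and 538, 485 and 601 TPM in the labelled knockout. Its 6.30-fold ratio of means was the largest of the members tested, and the groups lay far apart. The log2 fold change was 2.64 ± 0.12 (adjusted p = 8.2e-08), 1.70 ± 0.09 after median-of-ratios scaling (adjusted p = 3.7e-06) and 2.13 with quantile normalization. Psmd6, which encodes another lid subunit, was at 39.3, 42.3 and 38.5 TPM in WT and 43.4, 44.5 and 44.8 TPM in the labelled knockout. Its change was 0.14 ± 0.09 as deposited (adjusted p = 0.16), against -0.78 ± 0.07 after median-of-ratios scaling (adjusted p = 3.8e-05). Within a library the ratio of Psmd8 to Psmd6 was 2.08, 2.24 and 2.11 in WT and 12.4, 10.9 and 13.4 in the labelled knockout.

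The other lid genes lay between these. Psmd11, whose product braces the lid against the core, was at 67.3, 74.0 and 58.6 TPM in WT and 206, 180 and 209 TPM in the labelled knockout, a log2 fold change of 1.56 ± 0.12 as deposited, and of 0.63 ± 0.08 with the other scaling. Psmd7, whose product pairs with the deubiquitinase, rose from 47.6 ± 3.05 to 115 ± 5.89 TPM (SD, n = 3) and by 0.33 with median-of-ratios scaling (adjusted p = 0.0025). Psmd14, the gene of the deubiquitinase itself, rose from 43.3 ± 4.66 to 98.99 ± 4.14 TPM as deposited, and was not called with the other scaling (0.25, adjusted p = 0.084). Psmd3, Psmd12 and Psmd13 rose by 0.43, 0.35 and 0.78 as deposited, while with median-of-ratios scaling the first pair were lower and Psmd13 was not called (-0.15). Psmd13 shares exon sequence with Sirt3 on the opposite strand, which was at 42.8 to 54.4 TPM in WT and 16.4 to 20.4 TPM in the labelled knockout.

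The base chaperone genes also differed in the size of their change. Psmd10, which encodes gankyrin, a base chaperone also known as an oncoprotein in liver cancer (gene at chrX:140948429-140956728, minus strand), was at 5.62, 7.08 and 6.37 TPM in WT and 37.8, 30.5 and 33.6 TPM in the labelled knockout. Every labelled knockout library was above every WT library. The log2 fold change was 2.25 ± 0.12 (adjusted p = 2.0e-07), and 1.38 ± 0.09 with median-of-ratios scaling (adjusted p = 9.6e-06). Psmd5, which encodes a chaperone of the base and lies on chromosome 2, rose from 18.3 ± 2.84 to 57.7 ± 8.01 TPM (SD, n = 3), by 1.61 as deposited and 0.69 with the other scaling. Psmd9 was at 27.3, 38.6 and 32.1 TPM in WT and 31.4, 40.2 and 33.0 TPM in the labelled knockout, with overlapping groups. Its log2 fold change was 0.10 ± 0.14 (adjusted p = 0.54), and -0.82 ± 0.15 with median-of-ratios scaling (adjusted p = 0.0017).

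**Figure D2:**
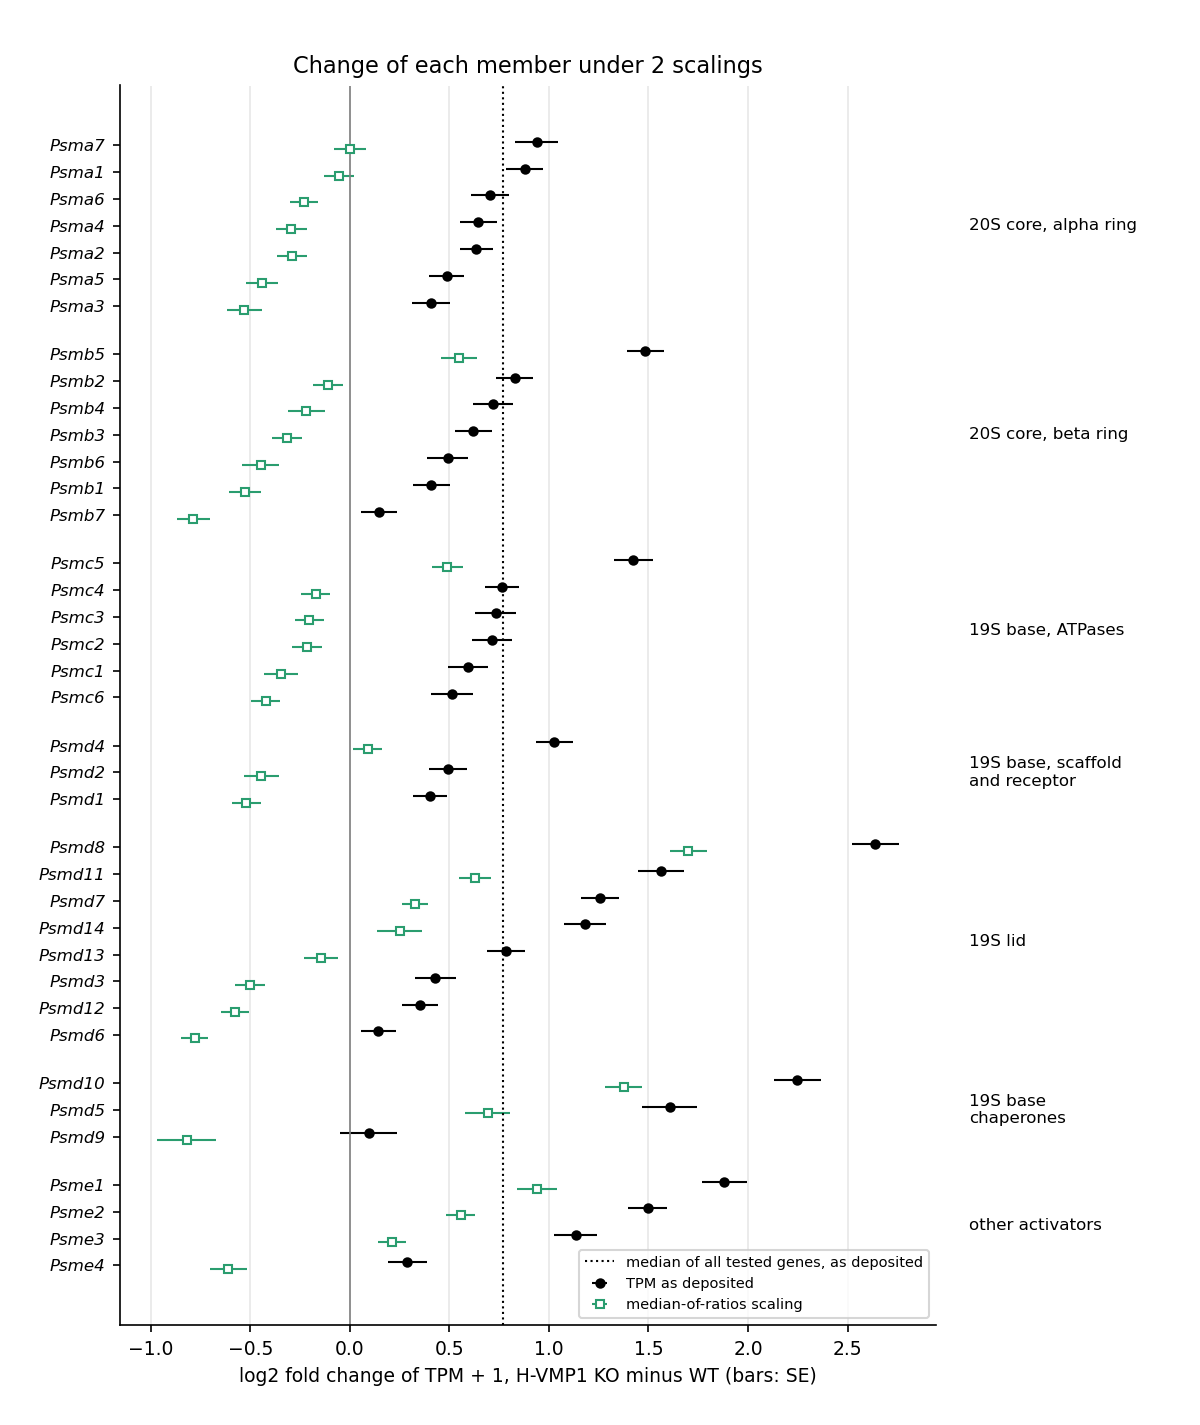
Log2 fold change of TPM + 1, labelled H-VMP1 KO minus WT, for the 38 genes by role, from TPM as deposited (black circles) and after median-of-ratios scaling (green squares), with SE bars. The dotted line is the median of all tested genes as deposited, 0.77, and is to be read with the black circles only. Psmd8 (2.64 and 1.70) and Psmd10 (2.25 and 1.38) have the largest changes under both scalings. Psmb7, Psmd6 and Psmd9 lie near 0 as deposited and below 0 after scaling.

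The activator genes ranged from a small to a large change. Psme1, the gene of the alpha subunit of the PA28 activator (chr14:55578123-55581529, plus strand), was at 127, 136 and 136 TPM in WT and 509.5, 434 and 539 TPM in the labelled knockout. Its log2 fold change was 1.88 ± 0.11 (adjusted p = 4.3e-07), and 0.94 ± 0.10 with median-of-ratios scaling (adjusted p = 8.8e-05). Psme2, the gene of the beta subunit in the same ring, was at 118, 121 and 114 TPM in WT and 349, 312 and 341 TPM in the labelled knockout, a log2 fold change of 1.496 ± 0.10 as deposited and 0.56 ± 0.07 with the other scaling. These partners were near parity in WT, with Psme1 to Psme2 ratios of 1.08, 1.12 and 1.19, and the ratio was 1.46, 1.39 and 1.58 in the labelled knockout. Exons of Psme1 overlap Emc9 on the opposite strand, at 23.4 to 26.8 TPM in WT and 12.7 to 16.7 TPM in the labelled knockout.

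Psme3, whose product forms the nuclear PA28 gamma ring, was at 28.7, 32.5 and 26.2 TPM in WT and 67.9, 59.6 and 67.6 TPM in the labelled knockout. It rose by 1.14 ± 0.11 as deposited and by 0.21 ± 0.07 with median-of-ratios scaling (adjusted p = 0.027). That second call was lost without WT replicate 1 (adjusted p = 0.065) or 3 (0.103) and without labelled knockout replicate 1 (0.067) or 3 (0.09). Psme4, the gene of the single-chain activator PA200, was at 16.9, 18.8 and 19.1 TPM in WT and 21.6, 22.0 and 24.0 TPM in the labelled knockout. It rose by 0.29 ± 0.10 as deposited (adjusted p = 0.019), a call lost without WT replicate 1 (adjusted p = 0.079) or labelled knockout replicate 3 (0.099), and was lower with median-of-ratios scaling (-0.61, adjusted p = 6.3e-04).

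Members with restricted expression were near the floor of the table. Psma8, the testis form of Psma7, was at 0.24, 0.63 and 0.30 TPM in WT and 1.80, 0.87 and 0.75 TPM in the labelled knockout. Psmb11, the thymus-specific catalytic subunit gene, was at most 0.02 TPM in any library. Psmc3ip was at 0.38, 0.17 and 0.17 TPM in WT and 0.75, 0.91 and 0.74 TPM in labelled knockout libraries. It shares exon sequence with Mlx, at 26.1 to 41.4 TPM, on the opposite strand. Psme2b was at 0.85, 1 and 0.61 TPM in WT and 2.46, 2.24 and 2.37 TPM in labelled knockout libraries, and sequence reads of the far more abundant Psme2 could be shared with it. No call is given for Psma8, Psmb11 and Psmc3ip, which were not tested.

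Setting each subunit against the others within its own library removes any single scaling factor between libraries. For the 31 tested subunits of the 26S particle, the log2 TPM of each was taken minus the mean log2 TPM of the other 30 in that library. Psmd8 was at 0.15, 0.27 and 0.17 in WT and at 2.12, 1.99 and 2.25 in the labelled knockout, a shift of 1.92. The next shifts were 0.81 for Psmd11, 0.72 for Psmb5, 0.67 for Psmc5, 0.496 for Psmd7 and 0.42 for Psmd14. At the other end were Psmd6 (-0.67), Psmb7 (-0.67) and Psmd12 (-0.45). The groups did not overlap for 9 subunits that moved up and 16 that moved down, and overlapped for 6. These positions are relative, so a large rise of 1 gene lowers all others slightly, and 25 of the 31 shifts were smaller than 0.5. With quantile normalization, on the log2(TPM + 1) scale, the shift was 1.95 for Psmd8, 0.84 for Psmd11, 0.82 for Psmb5 and 0.62 for Psmc5, and -0.81 for Psmd6 and -0.66 for Psmb7.

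**Figure D3:**
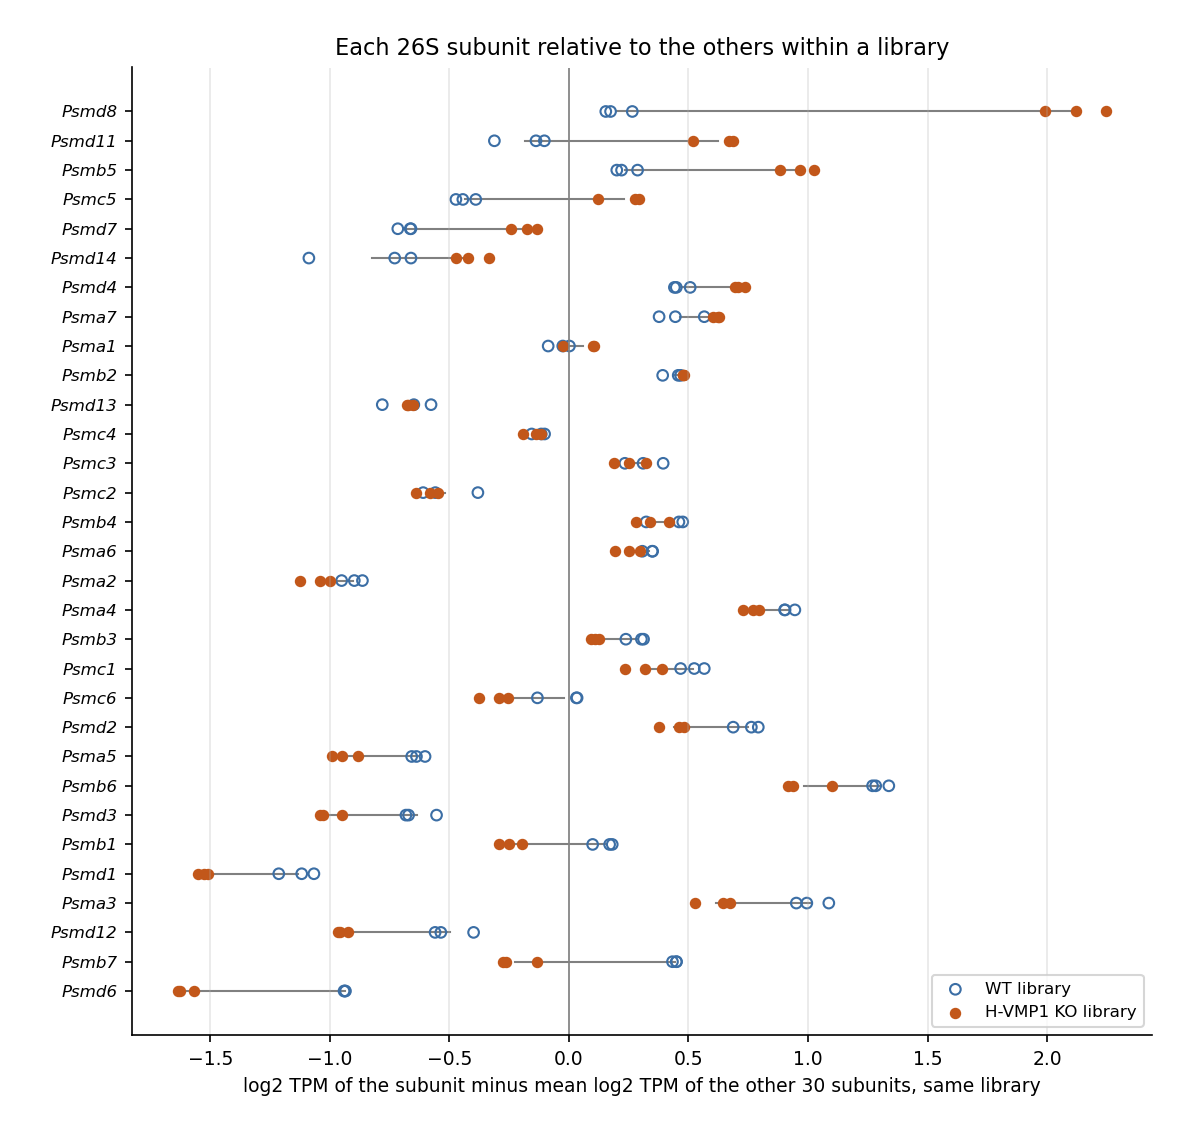
Log2 TPM of each of 31 subunits minus the mean log2 TPM of the other 30 in the same library, ordered by shift. WT libraries are open blue circles, labelled H-VMP1 KO libraries are filled orange circles and grey lines join the group means. Psmd8 lay between 0.15 and 0.27 in WT and between 1.99 and 2.25 in the labelled knockout, and Psmb7 and Psmd6 moved furthest down (-0.67 each).

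The order of abundance changed with these shifts. By mean TPM Psmd8 went from rank 15 of 31 in WT to rank 1 in the labelled knockout, Psmb5 from 14 to 3 and Psmd11 from 20 to 6. Psmb7 went from rank 8 to 20 and Psma3 from 2 to 8, while Psmb6 was first in WT and second in the labelled knockout. Psma2 held rank 29 in both, and Psmd1 and Psmd6 were the lowest pair in both. The spread among the 31 subunits, as the SD of their log2 TPM, was 0.589, 0.637 and 0.611 in WT and 0.778, 0.776 and 0.793 in the labelled knockout. Without Psmd8 it was 0.62 ± 0.02 in WT and 0.70 ± 0.01 in the labelled knockout (SD over 3 libraries), again without overlap.

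Core genes rose less than regulatory genes when averaged within a library. The mean log2 TPM of the 14 tested core genes minus that of the 24 regulatory genes was 0.835, 0.842 and 0.871 in WT and 0.475, 0.586 and 0.492 in the labelled knockout, without overlap. The difference between groups was -0.33 on the log2 scale. It was -0.26 without Psmd8, and fell in size by over 1.5 times with the chaperone and activator genes left out (-0.22) or with medians in place of means (-0.21), and these versions kept the groups apart. With quantile normalization, on the log2(TPM + 1) scale, it was likewise smaller (-0.22, against -0.32 as deposited on that scale). By single genes, 13 of 14 core and 22 of 24 regulatory genes rose as deposited, beside 74.5% of all genes, with medians of 0.64 and 0.77. With median-of-ratios scaling 35.1% of all tested genes were higher and 36.6% lower. Of the core genes 1 was then higher and 9 lower, and of the regulatory genes 9 were higher and 11 lower. Whether these counts differ between core and regulatory genes was not tested. In summed TPM the core genes went from 1390 ± 76.2 to 2241 ± 33.0, and the regulatory genes from 1503 ± 79.4 to 3469 ± 202. These sums were taken as deposited only.

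**Figure D4:**
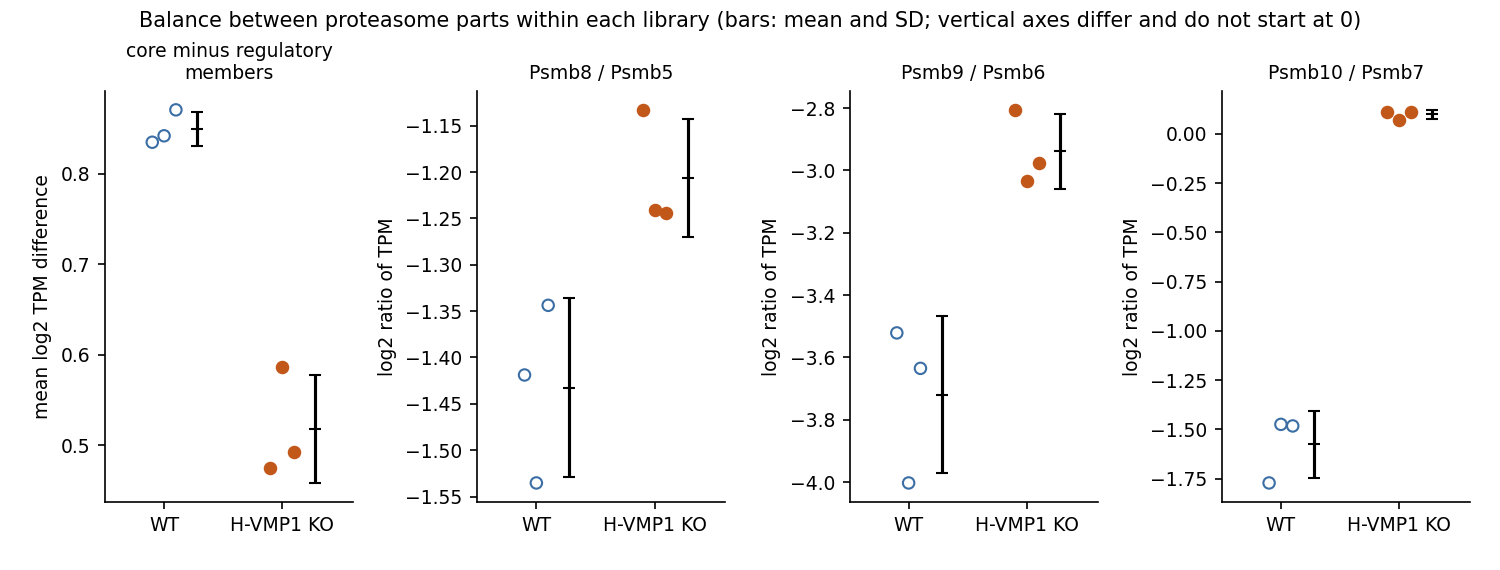
Left, mean log2 TPM of 14 core genes minus that of 24 regulatory genes in each library. Other panels, log2 ratio of each inducible catalytic gene to its constitutive counterpart, with WT as open blue and labelled H-VMP1 KO as filled orange circles and bars for mean and SD over 3 libraries. The groups are apart in every panel, and the widest step is Psmb10 to Psmb7, from -1.57 to 0.10 (axes differ between panels and do not start at 0).

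The inducible catalytic genes Psmb8, Psmb9 and Psmb10, which replace the constitutive ones in the immunoproteasome, all rose under both scalings (by 1.69, 1.22 and 1.79 as deposited). The ratio of Psmb10 to Psmb7 was 0.293, 0.36 and 0.358 in WT and 1.08, 1.05 and 1.08 in the labelled knockout. The ratio of Psmb9 to Psmb6 differed by 0.78 on the log2 scale, and that of Psmb8 to Psmb5 by 0.23. The difference for Psmb10 to Psmb7 was 1.67. With quantile normalization, on the log2(TPM + 1) scale, the Psmb9, Psmb8 and Psmb10 ratios differed by 0.29, 0.01 and 1.56. On that scale as deposited they differed by 0.72, 0.21 and 1.64. As deposited, each ratio was higher in 3 of 3 labelled knockout libraries than in every WT library. The two-sided exact permutation p was 0.1 for each, also adjusted over the 3 ratios, and is the smallest that 3 against 3 can give. Of 10 genes of the interferon-gamma response and antigen processing, 10 rose as deposited and 8 under both scalings, beside 74.5% and 35.1% of all tested genes, led by the guanylate-binding protein genes Gbp2 (3.06) and Gbp3 (2.75) and the tapasin gene Tapbp (2.48). The summed macrophage marker level was 87.6 to 148 TPM in WT and 902 to 1170 TPM in the labelled knockout. The endothelial sum was 35.3 to 40.6 and 95.1 to 129 TPM, and the stellate sum 43.9 to 47.3 and 231 to 238 TPM. Of the other marker lists, the hepatocyte sum was lower, the erythroid sums overlapped and the rest were higher. The part of these cell types in the change of Psme1, Psme2 and the interferon-gamma genes was not tested.

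For genes that assemble and serve the proteasome, the shares of all tested genes to read beside the counts are 74.5% higher as deposited, and 35.1% higher and 36.6% lower with median-of-ratios scaling. Of 5 core assembly chaperone genes, 5 rose as deposited, while with median-of-ratios scaling 1 was higher and 2 lower. Psmg4, which encodes a chaperone of the alpha ring, rose from 9.48 ± 0.80 to 31.9 ± 2.12 TPM and stayed higher (0.76, adjusted p = 2.0e-04). Pomp, the gene of the maturation factor of the core, rose by 0.78 as deposited and was at -0.16 with the other scaling (adjusted p = 0.17). Of 9 genes of other proteasome-bound proteins, 9 rose as deposited, and 2 were higher and 3 lower with median-of-ratios scaling. Zfand5, which encodes an activator of the 26S particle, rose by 1.83 and 0.92 under the scalings, and Psmf1, which encodes an inhibitor of the core, by 1.09 and 0.18. Of 5 ubiquitin shuttle receptor genes, 5 rose as deposited and 2 did so under both scalings (Ubqln2 by 1.48 and Ubqln4 by 1.16 as deposited).

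Genes of ubiquitin itself were higher. Of 6 ubiquitin and E1 enzyme genes, Uba6 passed the filter only through the labelled knockout and so had to differ. The other 5 rose as deposited (74.5% of all tested genes) and 3 did so under both scalings (35.1%), with a median log2 fold change of 1.35 as deposited beside 0.77 over all tested genes. Ubb, a polyubiquitin gene, went from 436 ± 33.1 to 1115 ± 72.4 TPM (log2 fold change 1.35, and 0.41 with median-of-ratios scaling). Rps27a, which encodes ubiquitin fused to a ribosomal protein, rose by 1.74. Of 9 genes of the unfoldase VCP and its cofactors, 9 rose as deposited, and 2 (Ubxn4 and Faf1) were higher and 3 lower with median-of-ratios scaling, beside 74.5%, 35.1% and 36.6% of all tested genes.

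Regulators of proteasome genes moved both ways. Nfe2l1, the gene of NRF1, was at 45.6 ± 2.69 TPM in WT and 75.2 ± 12 TPM in the labelled knockout, a log2 fold change of 0.70 ± 0.13 (adjusted p = 5.2e-04) that turned to -0.23 with median-of-ratios scaling (adjusted p = 0.066). Nfe2l2, the gene of the related factor NRF2, rose from 27.0 ± 4.60 to 103 ± 3.84 TPM, by 1.91 as deposited and 0.98 with the other scaling (adjusted p = 1.9e-04). Of their small MAF partner genes, Mafk (2.54) and Maff (2.21) rose under both scalings, while Mafg rose by 0.56 as deposited and was lower with median-of-ratios scaling (-0.35, adjusted p = 0.0082). Of the 9 tested genes on this list, 7 rose and 1 fell as deposited (74.5% and 10.7% of all tested genes). With median-of-ratios scaling 3 were higher and 4 lower (35.1% and 36.6%). The 1 that fell was Ddi2, the gene of the protease that activates NRF1, from 39.1 ± 4.30 to 28.1 ± 2.25 TPM (-0.46 ± 0.11, adjusted p = 0.0032), named here, like Mafg, after its value was seen.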

How the data were processed

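Total RNA from snap-frozen liver was sequenced, 1 library per sample. The authors deposited 1 table in TPM, and per the submitters' processing notes the tools and build were RSEM, STAR 2.6.1c, edgeR and mm10, with no role or order. The sources used here do not give the read number, strand setting or read length, so no count model, interval or detection limit is given. All 42 member identifiers matched GENCODE M21 on GRCm38 with the same symbol, and 0 value columns were left unmapped.

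All 12796 genes that reached 1 TPM in 3 or more libraries entered 1 fit as log2(TPM + 1), with limma 3.58.1 in R 4.3.3, with intensity trend, robust variances and Benjamini-Hochberg adjustment at 0.05. Fold changes are labelled knockout minus WT on that scale, which understates the change of low genes. On simulated data of 10797 genes the fit found 85% of genes set to a log2 change of 1 and 95% at a change of 2, and made 5 false calls. That simulation changed 100 genes at each size, in both directions, with no shift between libraries. It therefore does not test the scaling. Median-of-ratios size factors used genes above 0 in all libraries. Ratios were compared with exact permutation tests in Python 3.11.15.

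Members and lists were chosen with earlier results of these data known. Library values were given for the catalytic genes, the members with the highest and lowest change in each role, activators and low members, and up to 3 called genes were named per other list. One gene that this rule names is not reported here. The library values of Psmd11 were added after they were seen. Alternatives changed the pseudocount, filter, scaling, variance model and threshold, used a replicate block, and dropped libraries in turn.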

Additional observations from a re-analysis of the deposited data

How the results depend on the processing

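The counts of called members depended on the scaling between libraries. Of 39 tested members, Psme2b included, 36 were higher and 0 lower as deposited (13 and 0 of the core, 22 and 0 of the regulatory genes). With median-of-ratios scaling 11 were higher and 20 lower (core 1 and 9, regulatory 9 and 11), and with quantile normalization 20 and 7 (core 7 and 1, regulatory 13 and 6). Over all tested genes 74.5% were higher and 10.7% lower as deposited. The shares were 35.1% and 36.6% with median-of-ratios scaling, and 35.3% and 35.4% with quantile normalization. The median log2 fold change of members, 0.72 as deposited, was -0.22 with median-of-ratios scaling, 0.17 with quantile normalization, 0.46 rescaled without Mup genes and 0.53 rescaled without mitochondrially encoded and the 20 most abundant genes. With 1 library left out in turn it ran from 0.68 to 0.78, members called higher from 35 to 36, and members higher with both scalings from 9 to 11, the lost ones being Psme3 and Psme2b. The core minus regulatory difference of -0.33 was -0.21 with medians, -0.22 without activators and chaperones, -0.26 without Psmd8, a choice made after seeing the data, and -0.37 to -0.31 with 1 library left out. The 3 inducible to constitutive ratios kept their direction with each library left out. Quantile normalization of these measures, on the log2(TPM + 1) scale, was added after seeing the data. The core minus regulatory difference was then -0.22, against -0.32 as deposited on that scale. The log2 differences of the Psmb8 to Psmb5 and Psmb9 to Psmb6 ratios were 0.011 and 0.286. As deposited these were 0.206 and 0.724 on that scale, and 0.226 and 0.781 without the pseudocount.

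Among 65 named genes, 29 changed sign with median-of-ratios scaling: Psma1 (-0.056), Psma2 (-0.29), Psma3 (-0.53), Psma4 (-0.29), Psma5 (-0.44), Psma6 (-0.23), Psmb1 (-0.53), Psmb2 (-0.11), Psmb3 (-0.32), Psmb4 (-0.22), Psmb6 (-0.45), Psmb7 (-0.79), Psmc1 (-0.35), Psmc2 (-0.22), Psmc3 (-0.20), Psmc4 (-0.17), Psmc6 (-0.42), Psmd1 (-0.52), Psmd2 (-0.45), Psmd3 (-0.50), Psmd6 (-0.78), Psmd9 (-0.82), Psmd12 (-0.58), Psmd13 (-0.15), Psme4 (-0.61), Psmg2 (-0.20), Pomp (-0.16), Nfe2l1 (-0.23) and Vmp1 (-0.18). With quantile normalization 12 did: Psma2 (-0.035), Psma5 (-0.17), Psmb1 (-0.17), Psmb7 (-0.39), Psmc6 (-0.086), Psmd1 (-0.29), Psmd3 (-0.24), Psmd6 (-0.54), Psmd9 (-0.62), Psmd12 (-0.30), Psme4 (-0.48) and Psmg2 (-0.12). Psmb7, Psmd6 and Psmd9 were at -0.11, -0.12 and -0.16 rescaled without Mup genes, and at -0.046, -0.05 and -0.095 without mitochondrially encoded and abundant genes. With 1 library left out Psmd9, not called in any such fit, ran from -0.022 (without WT replicate 1) to 0.22 (without WT replicate 2) and was at -0.007 without labelled knockout replicate 2. No named gene changed sign with pseudocounts of 0.1 or 5, with the other filters, without trend and robust variances, or at a threshold of 0.01. The cause of these changes beyond the scaling itself was not tested.

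Same-numbered libraries of the groups did not deviate together (r = 0.076, 0.04 and -0.115 over 12796 genes), so no pairing by number was seen. With 3 libraries per group these correlations cannot exclude a pairing. A replicate block left 36 members called higher and 0 lower and changed no call of the 65 genes. Without read numbers the depth sets no stated limit here.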
